A study of Mus musculus with 12 samples.

Results

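A set of 10 genes of inflammasome signalling and lytic cell death was followed, chosen by symbol from the 24328 symbols of the count table: Nlrp3, Nlrc4, Pycard, Casp1, Casp4, Casp8, Gsdmd, Ripk3, Mlkl and Zbp1. All 10 members have a row, 9 of them passed the filter on low counts, and Nlrc4 did not. The RNA came from microglia, which are macrophages that live in the brain, collected by FACS from perfused wild-type BALB/c mice, with 4 mice in each of 3 groups. Control mice received no transplant. Mice of the syngeneic and allogeneic groups were lethally irradiated and given 5000000 bone marrow cells and 300000 T cells, from a syngeneic or an allogeneic donor, and their microglia were taken on day 14. The labels place the height of graft-versus-host disease (GvHD), in which donor T cells attack the tissues of the host, at that time. No group was irradiated without a transplant, the donor strain is not given in the sources used here, and in bulk RNA fewer cells of a type and less RNA per cell cannot be told apart.

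Inflammasomes are cytosolic complexes in which a sensor such as NLRP3 or NLRC4 gathers the adaptor ASC (encoded by Pycard) and activates caspase-1. Caspase-1 matures interleukin 1 beta and interleukin 18, and it cleaves gasdermin D, whose freed N-terminal fragment forms pores in the plasma membrane and ends in pyroptosis. Caspase-11, the product of mouse Casp4, binds cytosolic bacterial lipopolysaccharide and cleaves gasdermin D directly. In necroptosis the kinase RIPK3 activates the pseudokinase MLKL, which ruptures the membrane. ZBP1, a sensor of Z-form nucleic acid, can start that route, and caspase-8 restrains it. Many of these proteins are controlled by cleavage or phosphorylation, which RNA counts do not measure.

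Library totals ran from 32652208 to 46126118 counts. Levels are CPM, counts scaled to the effective library size, which is the library total times its TMM normalisation factor. The factor was 1.096 to 1.159 in control, 1.002 to 1.021 in syngeneic and 0.844 to 0.893 in allogeneic libraries. With library totals alone, the median log2 fold change of all tested genes was -0.22 in allogeneic against syngeneic, -0.20 in syngeneic against control and -0.44 in allogeneic against control, where the TMM factors gave -0.01, -0.03 and -0.07. Over all genes, library totals called 844 higher and 2108 lower in the first comparison (1288 and 810 with TMM), 2723 and 3968 in the second (3357 and 3253) and 2453 and 5259 in the last (3576 and 3697), beside which the member counts at that scaling are to be read. The summed level of 10 microglia markers was 47520 to 54240 CPM in control, 45670 to 48540 in syngeneic and 33170 to 34610 in allogeneic libraries, with P2ry12 and Csf1r among them. Of these markers, 6 rose and 4 fell in syngeneic against control, beside 26.4% and 25.6% of all tested genes. In allogeneic against syngeneic 0 rose and 7 fell, beside 10.1% and 6.38%. In allogeneic against control 3 rose and 7 fell, beside 28.2% and 29.1%. P2ry12 averaged 12080, 17280 and 9078 CPM in control, syngeneic and allogeneic libraries and Csf1r 11490, 3524 and 2879. The 8 markers of monocytes and engrafted macrophages summed to 11.97 to 19.36, 25.34 to 44.0 and 140.2 to 168.5 CPM, led by Plac8, Fn1 and Ms4a7. Of these, 3 rose and 0 fell in allogeneic against syngeneic, beside 10.1% and 6.38% of all tested genes. In syngeneic against control 5 rose and 0 fell, beside 26.4% and 25.6%. In allogeneic against control 6 rose and 1 fell, beside 28.2% and 29.1%. The marker that fell was Ccr2, named after its value was seen. The 7 NK and cytotoxic cell markers summed to 0 to 1.54, 0 to 1.97 and 21.58 to 36.28 CPM; Klrk1 carried the allogeneic sum, while Ncr1, Gzma and Prf1 were at 0 counts in every library. The 8 T cell markers summed to at most 5.80 CPM in any library, with Cd3e, Cd3d, Cd3g and Cd2 at 0 in control and Cd3e, Cd3g, Cd4 and Cd8a at 0 in syngeneic libraries. None of the 8 was at 0 in all allogeneic libraries. Cd2, 1 of 3 tested, rose against control in syngeneic and in allogeneic mice, beside 26.4% and 28.2% of all tested genes. Its means there were 0.3482 and 0.3335 CPM. The 4 choroid plexus markers, led by Ttr, rose from 12.87 to 96.67 CPM in control to 1090 to 1924 in syngeneic and 338.5 to 601.3 in allogeneic libraries. In the same order of groups, 6 border-associated macrophage markers, led by Mrc1, summed to 1.49 to 6.54, 21.82 to 34.55 and 20.81 to 28.35 CPM (Lyve1 at 0 in control and allogeneic libraries), 4 astrocyte markers to 0.155 to 2.60, 21.9 to 36.31 and 20.45 to 32.83 CPM, and 6 dendritic cell markers, led by Flt3, to 14.75 to 18.66, 0.707 to 2.93 and 3.09 to 7.47 CPM. Xist, the RNA that coats an inactive X chromosome, ranged from 121 to 233 CPM in control, 3.72 to 11.6 in syngeneic and 20.6 to 38.0 in allogeneic libraries, and the Y-linked Ddx3y was at 0 in all 12. The part of these shifts in the members' results was not tested.

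A gene is said to rise or fall where edgeR's quasi-likelihood test gave a Benjamini-Hochberg adjusted p under 0.05 over all 12695 genes tested, and values after ± are SDs with n = 4. Control, syngeneic and allogeneic libraries each serve in 2 of the comparisons between groups, so the comparisons share samples. Syngeneic against control is called the syngeneic step, and allogeneic against syngeneic the allogeneic step. The steps compare separate mice and are not points in time. The step difference uses all groups, with the syngeneic libraries in both of its steps.

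**Figure D1:**
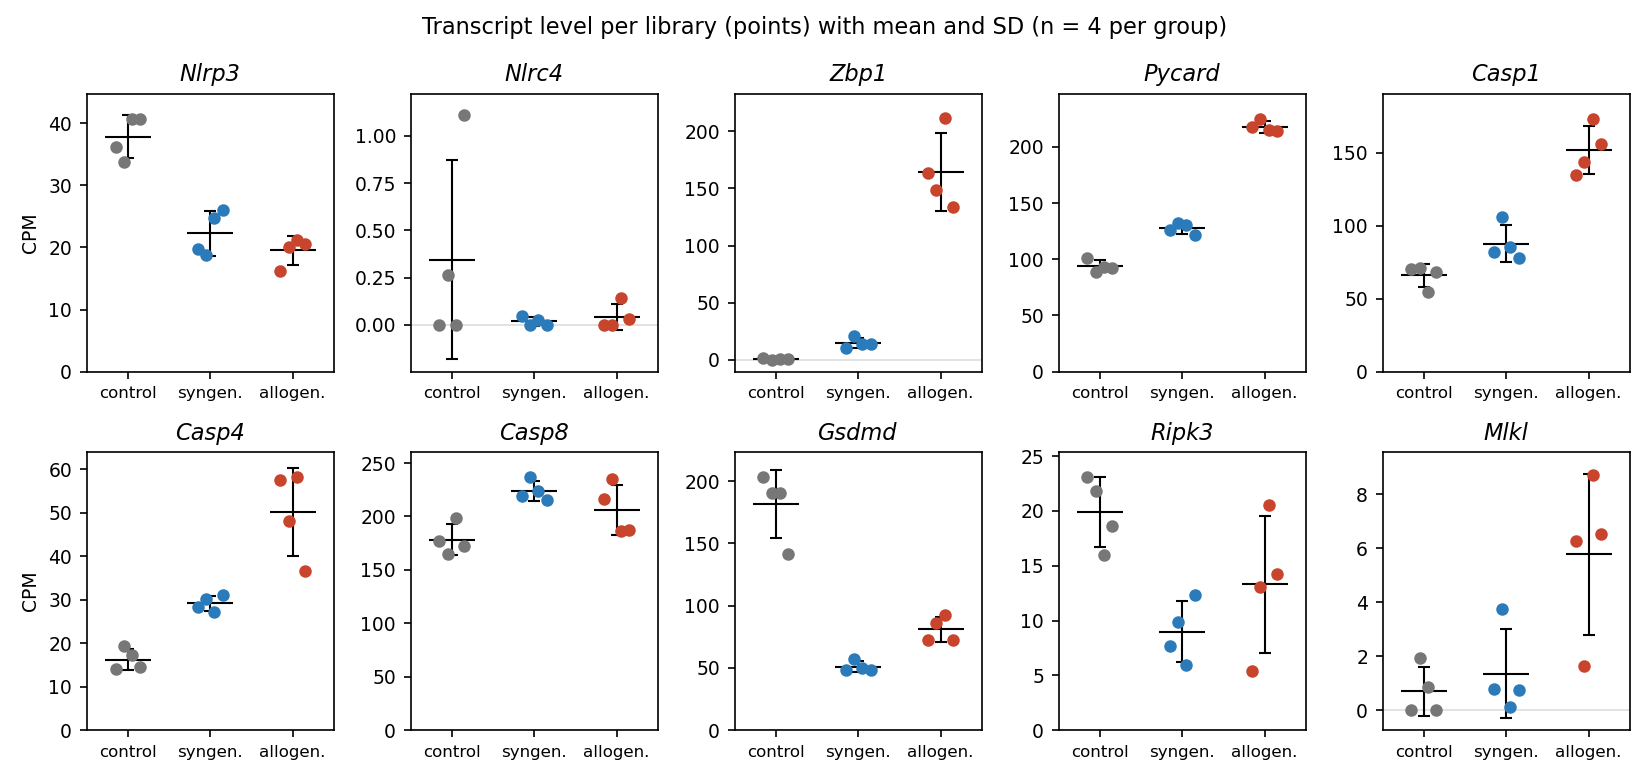
CPM (y axis, linear, scaled per panel) of the 10 members in the 4 control, 4 syngeneic and 4 allogeneic libraries; points are libraries, and bars are the mean and SD. Zbp1, Pycard, Casp1 and Casp4 were higher in syngeneic than in control and highest in allogeneic libraries (the syngeneic rise of Casp1 turns to -0.17 log2 units with a GC and length offset), Gsdmd was highest in control and lowest in syngeneic libraries, Nlrc4 reached at most 1.11 CPM and Mlkl at most 8.69 CPM.

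Allogeneic against syngeneic recipients asks what the allogeneic graft adds to irradiation and transplantation. Zbp1, Pycard, Casp1, Casp4 and Gsdmd rose, so 5 of the 9 tested members were called higher and 0 lower, beside 10.1% and 6.38% of all tested genes. The libraries of the 2 groups did not overlap for those 5, beside 20.7% of all tested genes. With library totals only, 5 were higher and 1, Casp8, lower (-0.32, adjusted p = 0.0121). In the same comparison 3 of the 8 monocyte and engrafted macrophage markers, Plac8, Fn1 and Ms4a7, rose. The others of those 8 were not called, and among them Ccr2 had a negative estimate (log2 -1). Klrk1 and Klrb1c, the 2 tested NK and cytotoxic cell markers, also rose. Casp8, Nlrp3, Ripk3 and Mlkl did not pass the test. In syngeneic against control, which asks what irradiation and transplantation change by themselves, Zbp1, Pycard, Casp1, Casp4 and Casp8 rose while Gsdmd, Ripk3 and Nlrp3 fell (Casp1 at -0.17 with a GC and length offset), beside 26.4% of all genes called higher and 25.6% lower. The libraries did not overlap for those 8 members, beside 50.1% of all tested genes. With library totals only, 3 were higher and 3 lower. Allogeneic against control gave 6 members higher and 2 lower, beside 28.2% and 29.1%, and 6 members did not overlap, beside 53.8%. With library totals only, 4 were higher and 3 lower, Ripk3 joining the latter (-0.96, adjusted p = 0.0131).

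**Figure D2:**
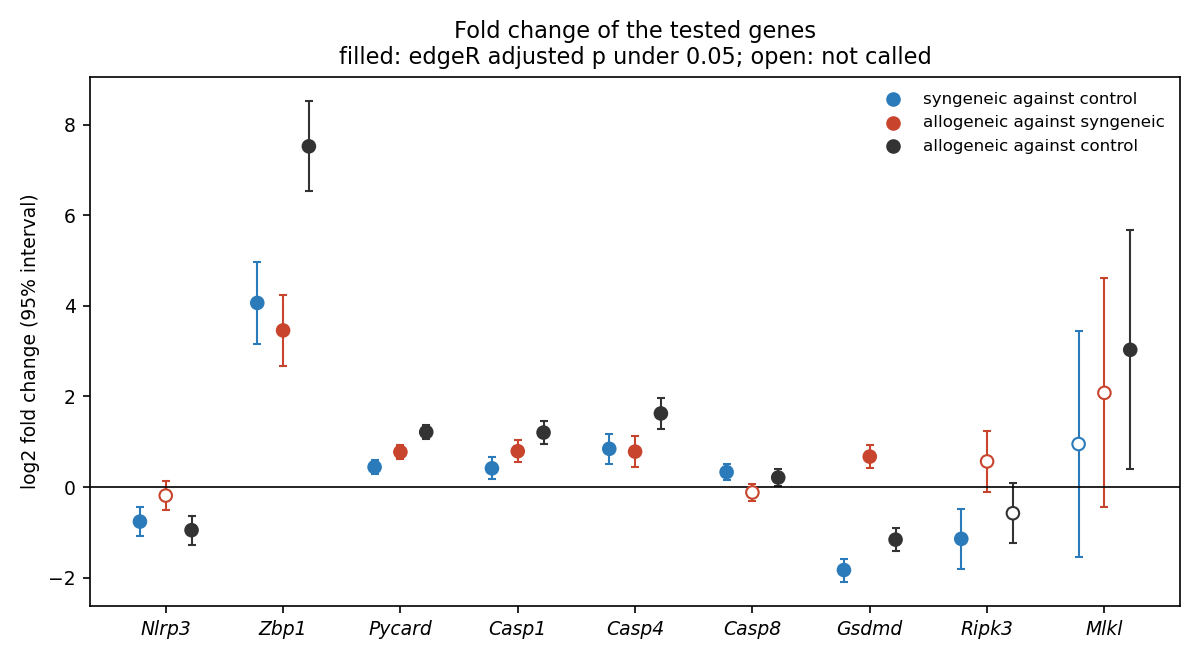
Log2 fold change (y axis, linear) of each tested member in the 3 comparisons; points are edgeR estimates, bars their 95% intervals, filled points were called and open points were not. Gsdmd is the member with estimates on both sides of 0 that were each called, at -1.83 for syngeneic against control and 0.67 for allogeneic against syngeneic.

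Among the sensors, Nlrp3, which assembles an inflammasome in response to ion flux and membrane damage, was highest in control microglia. Its level was 36.15, 33.73, 40.67 and 40.72 CPM in the control libraries, 19.7, 18.74, 24.69 and 25.97 in the syngeneic, and 16.16, 20.07, 21.27 and 20.6 in the allogeneic. The 4 control libraries lay above all 8 others, and the transplant groups overlapped. The fall from control was 0.76 log2 units in syngeneic (SE 0.155, edgeR adjusted p = 0.000422) and 0.95 in allogeneic mice (SE 0.156, adjusted p = 3.93e-05). Between the transplant groups the log2 difference was -0.19, with a 95% interval of -0.51 to 0.14 (adjusted p = 0.481). Nlrc4, the sensor that signals for bacterial flagellin and secretion-system proteins bound by NAIPs, was barely detected: 0, 10, 0 and 43 counts in control, 2, 0, 1 and 0 in syngeneic, and 0, 0, 5 and 1 in allogeneic libraries. Its control counts lay in 2 libraries, so no fold is given, and with no filter its edgeR adjusted p was 0.17 for syngeneic against control.

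Pycard, the ASC adaptor that joins sensors to caspase-1, rose at both steps with a small spread. It stood at 100.9, 88.53, 93.48 and 92.47 CPM in control, 125.6, 131.8, 130.6 and 121.4 in syngeneic and 217.8, 224.9, 214.5 and 213.7 in allogeneic libraries. No library of any group overlapped those of another, and the coefficient of variation within groups was 2.35% to 5.52%. The log2 fold change was 0.77 in allogeneic against syngeneic (SE 0.073, edgeR adjusted p = 2.64e-07), 0.44 in syngeneic against control (SE 0.073, adjusted p = 5.82e-05) and 1.21 in allogeneic against control (SE 0.074, adjusted p = 9.69e-11).

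Casp1 and Casp4, neighbours on mouse chromosome 9, followed. Casp1 encodes caspase-1, the protease of the inflammasome. It stood at 70.07, 70.8, 54.52 and 68.2 CPM in control, 81.65, 105.8, 85.4 and 77.89 in syngeneic and 134.4, 143.7, 173.1 and 155.7 in allogeneic libraries. The 3 groups did not overlap. Its log2 fold change was 0.79 in allogeneic against syngeneic (SE 0.116, edgeR adjusted p = 6.44e-05) and 0.41 in syngeneic against control (SE 0.116, adjusted p = 0.00616). The second call did not hold with library totals (0.24, adjusted p = 0.0833) or with an offset for GC content and length (-0.17, adjusted p = 0.218). Casp4, the lipopolysaccharide-binding caspase-11, stood at 14, 19.32, 17.18 and 14.43 CPM in control, 28.26, 30.15, 27.18 and 30.95 in syngeneic and 57.57, 48.15, 58.1 and 36.55 in allogeneic libraries. These groups also did not overlap, and the lowest allogeneic library lay closest to the syngeneic range. The log2 fold change was 0.78 (SE 0.16, edgeR adjusted p = 0.00177) in allogeneic against syngeneic and 0.84 (SE 0.162, adjusted p = 0.000249) in syngeneic against control, and the latter was lost with the GC and length offset (0.26, adjusted p = 0.21). In allogeneic against control the values were 1.20 for Casp1 and 1.63 for Casp4, and 0.36 and 0.76 with the offset, each still called. Casp1, Casp4 and Casp12 are related in sequence, and how reads shared by them were counted is not given in the sources used here.

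Because Casp1 and Casp4 rose together, the bases before their starts are shown, as 150 bases from RefSeq for GRCm38.p6, 5′ to 3′ on the plus strand, at chr9:5298367-5298516 for Casp1 and chr9:5308699-5308848 for the first of 2 Casp4 promoters.
Casp1: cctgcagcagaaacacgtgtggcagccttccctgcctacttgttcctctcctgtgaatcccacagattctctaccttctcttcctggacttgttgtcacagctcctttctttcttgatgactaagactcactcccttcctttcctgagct
Casp4: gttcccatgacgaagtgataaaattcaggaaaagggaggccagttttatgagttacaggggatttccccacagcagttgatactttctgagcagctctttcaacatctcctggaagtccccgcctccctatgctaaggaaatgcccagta
The GAS core TTCNNNGAA and the ISRE core GAAANNGAA, short motifs known from promoters of interferon-response genes, were searched on both strands over 250 bases before the start. Neither was found in any of 10 promoter windows of the 8 members with an entry (Zbp1 and Gsdmd have none), while 7.02% and 7.13% of all 32851 promoter windows held one, so nothing is capitalised above. These letters are not in those windows; nothing is drawn from this about the factors.

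Gsdmd, the pore-forming substrate of both caspases, fell in syngeneic against control and rose in allogeneic against syngeneic. Its level was 203.2, 190.8, 190.8 and 141.5 CPM in control, 48.27, 57.27, 49.85 and 48.35 in syngeneic and 72.63, 86.46, 92.6 and 72.83 in allogeneic libraries. The control libraries lay far above the rest, and each allogeneic library lay above every syngeneic one. Syngeneic against control was a 3.56-fold fall (log2 -1.83, SE 0.12, edgeR adjusted p = 6e-10), and allogeneic against syngeneic a 1.59-fold rise (log2 0.67, SE 0.118, adjusted p = 0.000409). Allogeneic microglia were 2.24-fold below control (log2 -1.16, SE 0.118, edgeR adjusted p = 1.21e-07). With the GC and length offset the syngeneic fall was 1.55 log2 units and the allogeneic rise 0.58.

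Among the necroptosis genes, Zbp1 had the largest fold change of the members. It stood at 1.784, 0.1327, 0.6856 and 0.9565 CPM in control, 10.63, 21.11, 14.12 and 13.97 in syngeneic and 163.6, 148.8, 212 and 133.9 in allogeneic libraries. Every syngeneic library lay above every control one, and every allogeneic library above every syngeneic one. The log2 fold change was 3.46 in allogeneic against syngeneic (11-fold, SE 0.362, edgeR adjusted p = 1.42e-05) and 4.07 in syngeneic against control (16.8-fold, SE 0.422, adjusted p = 3.09e-06), and with the offset 3.38 and 4.32. The difference of these 2 steps, -0.61 (95% interval -1.96 to 0.75, adjusted p = 0.521), did not pass the test.

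Ripk3, the kinase that ZBP1 engages, fell in syngeneic mice and spread widely in allogeneic ones. It stood at 23.07, 21.84, 15.96 and 18.64 CPM in control, 7.71, 9.907, 5.967 and 12.35 in syngeneic and 5.356, 13.05, 20.5 and 14.27 in allogeneic libraries. Control and syngeneic libraries did not overlap, whereas the allogeneic libraries reached from below the lowest syngeneic one into the control range. The syngeneic fall was 2.21-fold (log2 -1.15, SE 0.316, edgeR adjusted p = 0.00539). Allogeneic against syngeneic was 0.57 (95% interval -0.10 to 1.23, adjusted p = 0.26), and without allogeneic library 1 it was 0.83 and passed (adjusted p = 0.0383). Allogeneic against control was -0.58 (adjusted p = 0.124) and passed without allogeneic library 3 (-0.87, adjusted p = 0.0303).

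Mlkl, the executor of necroptosis, was low throughout: 0, 1.937, 0.8815 and 0 CPM in control, 0.8022, 3.769, 0.1095 and 0.7579 in syngeneic and 6.27, 1.628, 8.691 and 6.533 in allogeneic libraries. It passed the filter in all 4 libraries only in the allogeneic group, and its groups overlapped. Allogeneic against control was called at 3.03 (SE 1.246, edgeR adjusted p = 0.0478), but the call held in 4 of 12 fits that left out 1 library (adjusted p 0.016 to 0.0911), was lost with DESeq2 (adjusted p = 0.0633), and stood at 4.23 without control library 2 and at 5.14 with limma-voom. Allogeneic against syngeneic was 2.08 (SE 1.194, adjusted p = 0.281). Casp8, the caspase that restrains necroptosis and can cleave gasdermin D, shifted by small amounts: 177.5, 164.7, 199 and 172.1 CPM in control, 219.4, 236.7, 224.3 and 215.8 in syngeneic and 216.2, 234.8, 186.2 and 187.8 in allogeneic libraries. The syngeneic libraries lay above the control ones, a rise of 0.33 (SE 0.086, edgeR adjusted p = 0.0036) that was lost with library totals (0.16, adjusted p = 0.129) and with the offset (0.19, adjusted p = 0.065). Its call in allogeneic against control, 0.21 (adjusted p = 0.0452), held in 3 of 12 fits that left out 1 library and turned to -0.16 with library totals.

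The step difference, the allogeneic step minus the syngeneic step on the log2 scale, tested whether the 2 steps differed. Gsdmd (2.51, SE 0.215, edgeR adjusted p = 1.55e-07) and Ripk3 (1.71, SE 0.563, adjusted p = 0.028) were called higher, and Casp8 (-0.45, SE 0.148, adjusted p = 0.0279) lower. These are 2 of 9 members beside 14.4% of all genes, and 1 of 9 beside 15.5%. The Ripk3 call was lost without syngeneic library 1, 2 or 3 or allogeneic library 3 (adjusted p 0.0508 to 0.101) and with the GC and length offset (adjusted p = 0.074), and the Casp8 call without syngeneic library 1, 2 or 3 or allogeneic library 4 (0.0521 to 0.0988). Pycard (0.33, adjusted p = 0.0559), Nlrp3 (0.58, adjusted p = 0.122) and Casp1 (0.38, adjusted p = 0.177) did not pass; with the offset Pycard (0.48, adjusted p = 0.00787) and Casp1 (0.70, adjusted p = 0.0108) did, and without syngeneic library 2 Casp1 did too (0.58, adjusted p = 0.0478). Pycard also passed with DESeq2 (adjusted p = 0.0375) and with a filter of 1 CPM in at least 4 libraries (adjusted p = 0.0498).

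Fold changes against control fell with GC content across genes, which are not independent replicates: Spearman rho was -0.30 in syngeneic and -0.28 in allogeneic against control and -0.04 in allogeneic against syngeneic. With transcript length rho was -0.07, -0.13 and -0.20 in the same order. Casp1 and Casp4 lie at the low end, with 41.1% and 42.0% GC (percentiles 7.6 and 10.1 of tested genes), and Gsdmd, Ripk3 and Zbp1 higher, at 54.4%, 53.8% and 52.9%. With a loess offset on GC and length, Pycard, Zbp1, Gsdmd, Ripk3 and Nlrp3 kept their syngeneic-against-control calls, while Casp1, Casp4 and Casp8 lost theirs. For Pycard the offset used its 3800-base transcript with 45.6% GC. A fit with its 493-base coding transcript was not run, so every Pycard value with the offset holds for the 3800-base form only. The allogeneic-against-syngeneic calls of Casp1 (0.53, edgeR adjusted p = 0.00189) and Casp4 (0.50, adjusted p = 0.0424) held.

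**Figure D3:**
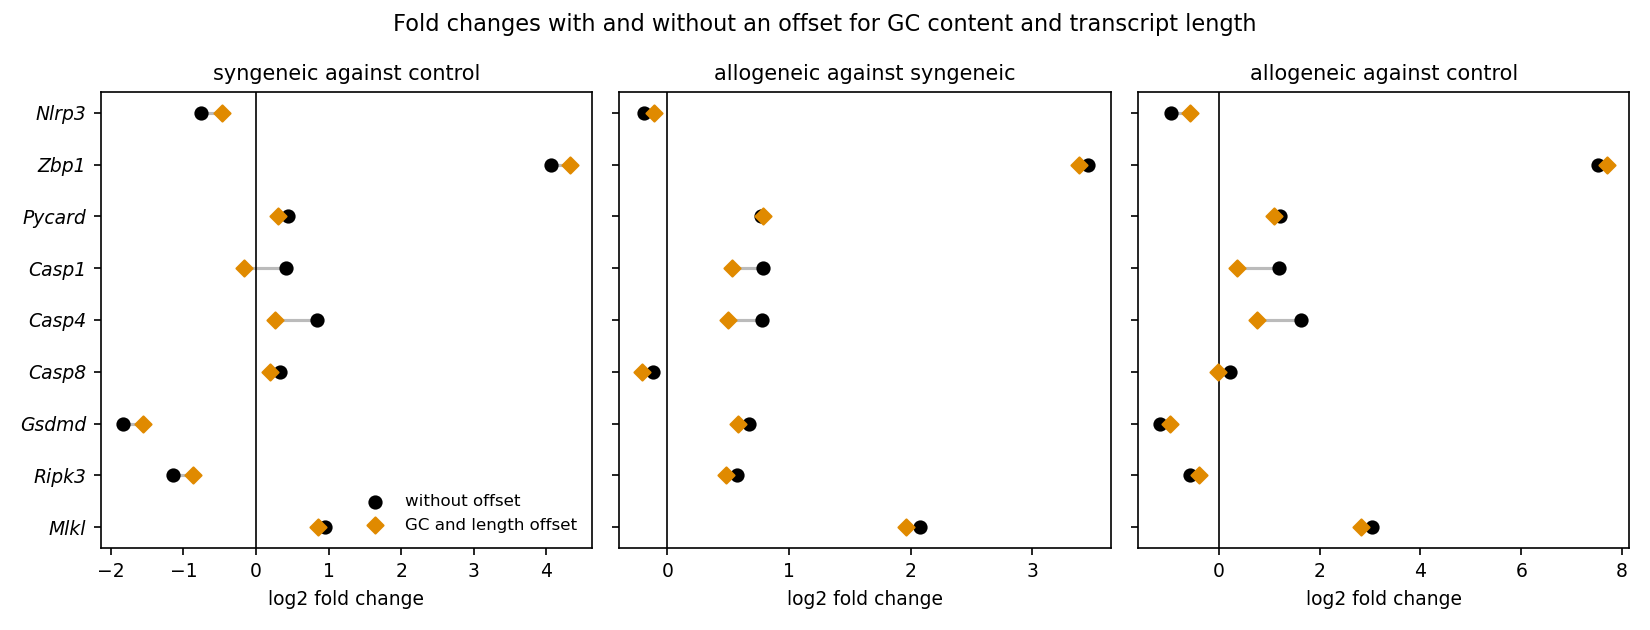
Log2 fold change (x axis, linear, scaled per panel) of each tested member (y axis) in the 3 comparisons, without an offset (black circles) and with one for GC content and transcript length (orange diamonds). Casp1 and Casp4 moved left in allogeneic against control, from 1.20 to 0.36 and from 1.63 to 0.76, while the circles and diamonds of Pycard lie close together. The offset of Pycard used its 3800-base transcript.

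Per kilobase of the principal transcript, which allows levels of different genes to be set side by side, the order changed between groups. In control it was led by Gsdmd (101 CPM per kilobase), Casp8 (69.0) and Casp1 (44.0), with overlapping neighbours at Casp4 (11.3), Ripk3 (10.5) and Nlrp3 (9.40), and in allogeneic microglia by Casp1 (101), Zbp1 (82.7) and Casp8 (79.8), where the libraries of Casp1 and Zbp1 overlapped and those of Zbp1 and Casp8 did too. In syngeneic microglia Casp8 (86.7) and Casp1 (58.6) led, and Zbp1, Nlrp3 and Ripk3 (7.52, 5.54 and 4.75) were not separated. Mlkl and Nlrc4 had the lowest means in all 3 groups, although libraries of Mlkl overlapped those of Zbp1 in control and those of Nlrp3 in allogeneic mice. The place of Pycard depends on its transcript: 24.7, 33.5 and 57.3 in control, syngeneic and allogeneic with the 3800-base transcript, and 190, 258 and 442 with the 493-base one. No GC offset was applied to these levels. With it the log2 fold change of Casp1 in allogeneic against control was 0.36, where it was 1.20 without.

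Genes with patterns most like each member over the 12 libraries are given by Pearson's r of log2 CPM, as a description; the points share 3 groups, so r mostly follows the group means. For Zbp1 these were Isg15 (0.993), Snrpg (0.992) and Oasl2 (0.991), for Pycard Rpl36 (0.997), Rps14 (0.995) and Il1b (0.993), and for Casp1 Hs3st3b1 (0.983), Tgtp2 (0.981) and Trim30d (0.974). Casp4 was closest to Trim30a (0.98), Hsp90b1 (0.978) and Clec5a (0.977), Gsdmd to Comp, Shisa5 and Renbp (0.975 each), and Nlrp3 to Pkd1 (0.982), Acox3 (0.98) and Cherp (0.978). The highest values were lower for Casp8, with Tmem229a (0.946), Ppapdc1b (0.917) and Dock1 (0.907), for Ripk3, with Slc2a1 (0.938), Psmf1 (0.895) and Zc3h13 (0.889), and for Mlkl, with Rhobtb3 (0.913), Zdhhc9 (0.894) and Cd244 (0.889).

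A list of 47 further pathway genes, 44 of them tested, put the members in context. In allogeneic against syngeneic 15 rose and 2 fell (13 and 7 with library totals), beside 10.1% and 6.38% of all genes, with a median log2 fold change of 0.33 beside -0.01 over all genes. In syngeneic against control 10 rose and 18 fell, beside 26.4% and 25.6% (median -0.05 beside -0.03). In allogeneic against control 16 rose and 13 fell, beside 28.2% and 29.1% (15 and 20 with library totals; median 0.10 beside -0.07). Of 6 pyroptosis effectors and interleukin 1 family products, 3 rose and 0 fell in allogeneic against syngeneic, beside 10.1% and 6.38% of all genes. In syngeneic against control 3 rose and 0 fell, beside 26.4% and 25.6%. In allogeneic against control 4 rose and 1 fell, beside 28.2% and 29.1%. Casp12 rose (1.64) and Gsdme fell (-1.19) only in allogeneic against control, and Ninj1 was not called. These genes were named after their values were seen. Il1a, Il1b and Il18, the 3 interleukin genes of the list, rose in all 3 comparisons. Of these, Il1b, whose protein caspase-1 matures, stood at 10.98 ± 1.48, 29.94 ± 2.69 and 208.7 ± 39.4 CPM in control, syngeneic and allogeneic. Its log2 fold change was 2.80 in allogeneic against syngeneic and 1.45 in syngeneic against control (edgeR adjusted p = 1.26e-10 and 9.09e-08). Il18 stood at 41.1, 57.8 and 91.2 CPM, and its allogeneic rise of 0.66 (adjusted p = 0.00149) was lost with the GC and length offset (0.27, adjusted p = 0.192), as was its rise of 1.15 in allogeneic against control (0.24, adjusted p = 0.135). Il1a encodes an alarmin released by dying cells. Its rise was 0.87 log2 units in allogeneic against syngeneic (edgeR adjusted p = 8.51e-08) and 1.16 in syngeneic against control (adjusted p = 6.02e-10).

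Among 11 tested sensors, adaptors and regulators, 2 rose and 1 fell in allogeneic against syngeneic, beside 10.1% and 6.38% of all genes. In syngeneic against control 1 rose and 5 fell, beside 26.4% and 25.6%. Naip2, which binds bacterial secretion-system proteins for NLRC4, rose by 0.99 in allogeneic against syngeneic (SE 0.129, edgeR adjusted p = 1.66e-05). Partners of NLRP3 went different ways in syngeneic against control: the kinase gene Nek7 rose by 0.84 (edgeR adjusted p = 1.41e-06), while P2rx7, the ATP-gated channel upstream of NLRP3, fell by 0.95 (adjusted p = 3.98e-07) and Txnip, whose protein binds NLRP3, fell by 0.58 (adjusted p = 3.87e-05). Txnip also fell in allogeneic against syngeneic, by 0.39 (edgeR adjusted p = 0.00535).

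Of 5 interferon-related inputs, 4 rose and 0 fell in allogeneic against syngeneic, beside 10.1% and 6.38% of all genes. In syngeneic against control 2 rose and 2 fell, beside 26.4% and 25.6%. Irf1, a transcription factor that activates interferon-response genes, fell from 91.7 to 54.8 CPM in syngeneic and rose to 268.4 CPM in allogeneic microglia (log2 2.29, SE 0.12, edgeR adjusted p = 1.45e-10), and Gbp2 and Gbp5, GTPases that attack pathogen membranes, rose by 3.43 and 3.12 log2 units (Gbp5 by 3.86 with limma-voom). Irgm1, an immunity-related GTPase, rose by 2.08 (SE 0.131, adjusted p = 1.68e-09). The Gbp and Naip families hold paralogs, and how reads shared among them were counted is not given in the sources used here. Of 22 death-receptor, necroptosis and ubiquitin control genes, 6 rose and 1 fell in allogeneic against syngeneic, beside 10.1% and 6.38% of all genes. Those that rose included Tlr3, an endosomal RNA sensor (0.99, edgeR adjusted p = 5.95e-07), Adar, an RNA-editing enzyme (0.81, adjusted p = 7.91e-05), and Birc3, the ubiquitin ligase cIAP2 (1.24, adjusted p = 0.000126). In syngeneic against control 4 of the 22 rose, 11 fell and 7 did not pass, beside 26.4% and 25.6% of all genes. Xiap, a caspase inhibitor, rose by 0.91 (edgeR adjusted p = 2.3e-05), and the TNF receptor gene Tnfrsf1a fell by 0.73 (adjusted p = 1.39e-05), a call lost with the GC and length offset (-0.19, adjusted p = 0.119). Cflar, the caspase-8 brake c-FLIP, went from 131.1 ± 8.09 to 62.75 ± 8.38 CPM (log2 -1.06, SE 0.102, edgeR adjusted p = 8.24e-08). The 3 genes of the linear ubiquitin complex, Sharpin (-1.27), Rnf31 (-1.77) and Rbck1 (-0.66, named after its value was seen), fell as well, and Rnf31 was -0.96 with the offset. Fas, the death receptor, rose from 0.285 to 5.55 CPM (log2 4.30, edgeR adjusted p = 7.12e-06), a value that was 5.72 without control library 4 and 5.27 with limma-voom. The sensors Mefv, Nlrp6 and Nlrp12 did not pass the filter.

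In the step difference 19 of the 44 pathway genes were called higher and 4 lower, beside 14.4% and 15.5% of all genes. The smallest p belonged to Irf1 (3.03, edgeR adjusted p = 1.92e-08), Cflar (1.38), Adar (1.34), Sharpin (1.72), Irgm1 (1.31), Il1b (1.35), Tlr3 (0.96), P2rx7 (0.99), Rnf31 (2.46), Xiap (-1.04), Tlr4, the lipopolysaccharide receptor (0.82), and Naip5, the flagellin sensor (1.497, adjusted p = 0.00445). Of these, Sharpin, P2rx7, Rnf31, Xiap and Naip5 were not called in allogeneic against syngeneic, and the others rose there. Naip5 was 0.33 in that comparison (edgeR adjusted p = 0.32) and -1.17 in syngeneic against control (adjusted p = 0.000109). With the GC and length offset the step difference of Xiap was -0.56 and lost its call (adjusted p = 0.0622), and that of Rnf31 was 1.78.

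**Figure D4:**
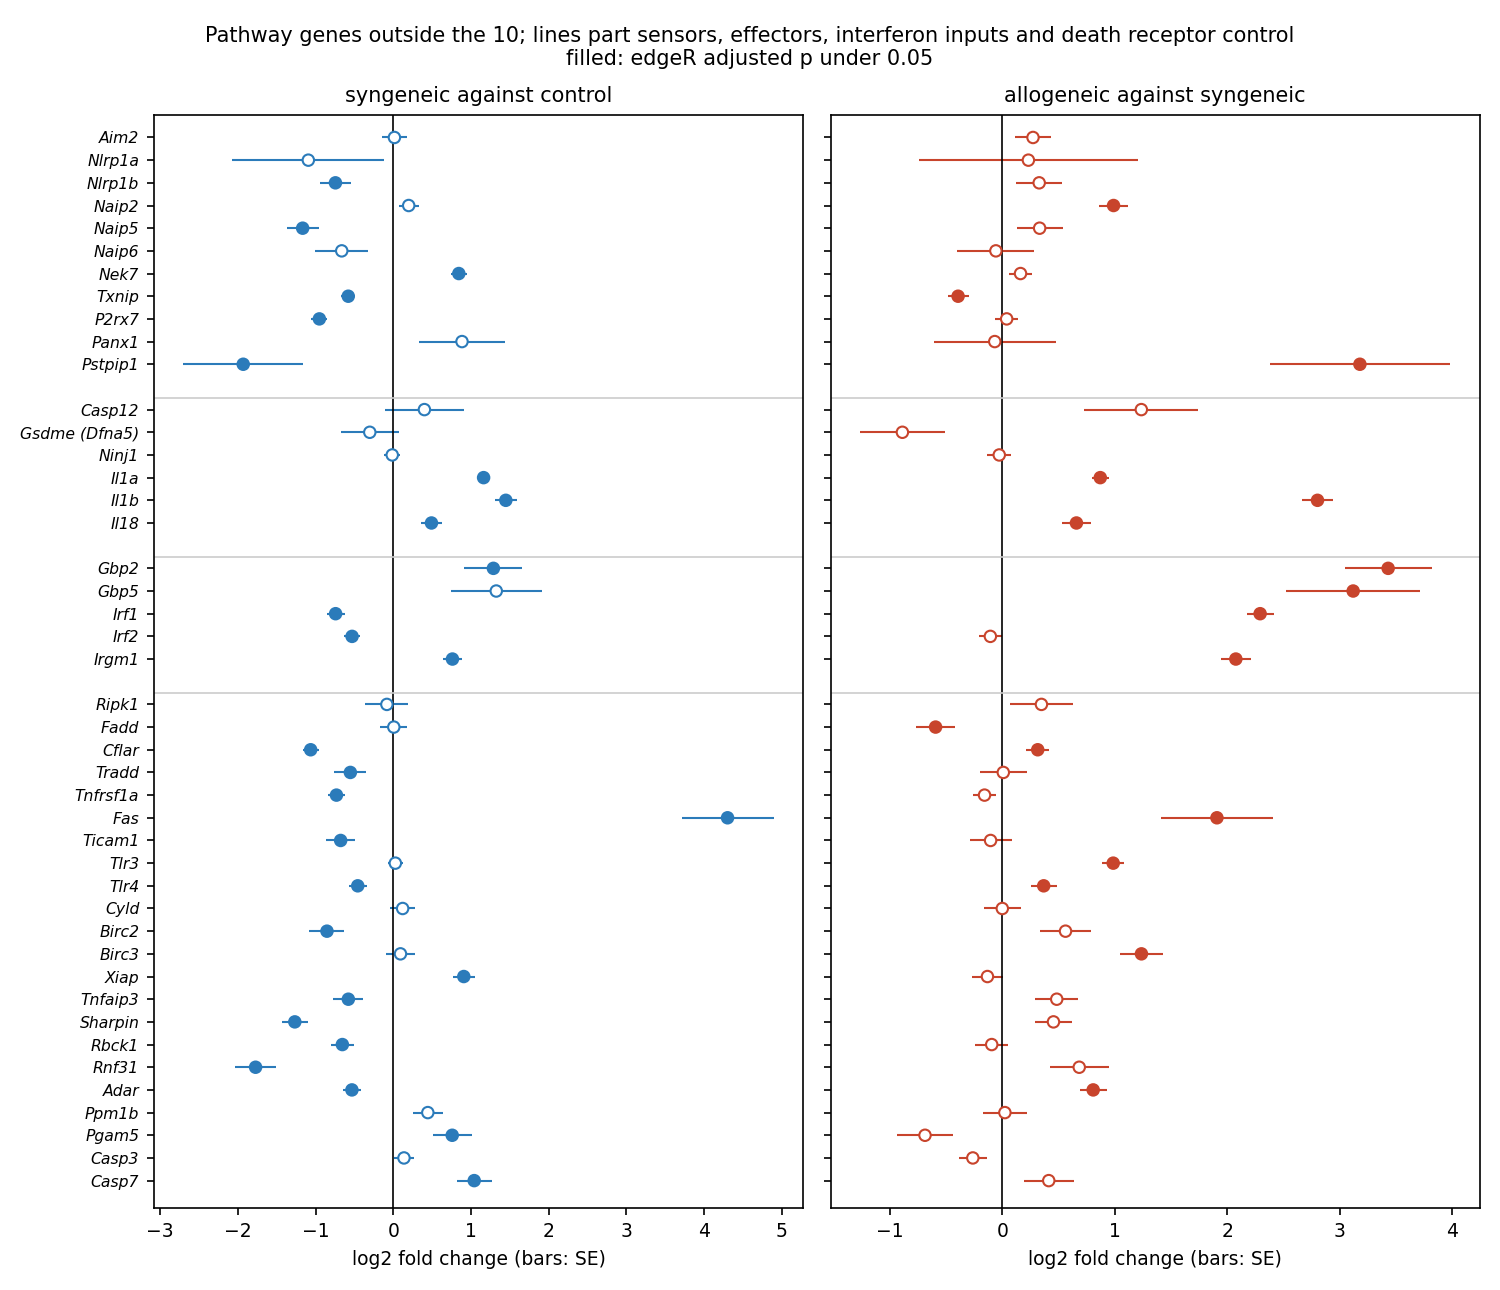
Log2 fold changes of the 44 tested pathway genes (y axis, in 4 blocks) in syngeneic against control (left) and allogeneic against syngeneic (right); the x axis is linear and scaled per panel, bars are SEs, and filled points were called. Il1b and Gbp2 sit at the right in allogeneic against syngeneic, and Cflar, Sharpin and Rnf31 sit left of 0 in syngeneic against control.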

How the data were processed

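RNA-seq counts from 12 libraries of sorted microglia, 4 mice per group, were used. The authors deposited a table of raw counts per gene symbol; Trimmomatic 0.36, STAR 2.5.2b and mm9 are named in the submitters' processing notes. The tool, annotation and strand setting behind the counts, and the treatment of shared reads, were not given in the sources used here. No table column was left unused. From the counts, edgeR 4.0.16 in R 4.3.3 gave TMM factors, the filterByExpr filter (minimum count 10) and 1 robust quasi-likelihood fit of all 12 libraries, with Benjamini-Hochberg adjustment. Members, gene lists and comparisons were chosen with earlier results of these data known. Named genes are all members, per comparison the up to 12 called pathway genes with the smallest p, the 3 genes with the highest r to each member, and leading or undetected markers, of which 1 is not reported here. Gene lengths and GC come from GENCODE M21, and promoters from RefSeq; their build is GRCm38, not that of the counts, and the promoter positions printed are of GRCm38.p6. The method was tested on simulated counts. They had fewer changed genes and less spread than these data, so they do not bear on any single call here. Alternatives were RLE factors, library totals, no filter, a 1 CPM filter, DESeq2 1.42.0, limma-voom 3.58.1, only the compared groups, a GC and length offset (loess span 0.3), the replicate block and each library left out.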

Additional observations from a re-analysis of the deposited data

Results flagged for a closer look

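In control mice, Casp1 in 1 library stood apart: 54.52 CPM in control library 3, while the other 3 controls lay between 68.2 and 70.8. The gap to its nearest neighbour was 0.84 of the group's range, above Dixon's 95% limit for 4 samples. This was 1 of 30 groups of member values checked, and chance flags about 1 in 20.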

How the results depend on the processing

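Zbp1, Pycard, Gsdmd and Nlrp3 kept direction and call under all 21 alternatives in each of the 3 comparisons between groups. For Pycard this includes the GC and length offset only with its 3800-base transcript. Over 36 member fold changes, 691 of 747 values under an alternative kept both, 38 lost a call, 10 gained one and 8 reversed. The GC and length offset left 5 members called in syngeneic against control (8 without it), reversed Casp1 there (-0.17), Casp8 in allogeneic against control (-0.02; -0.16 with library totals) and Casp4 in the step difference (0.25). Leaving out single libraries moved that Casp4 value from -0.18 to 0.06 (0 without control library 1), and Mlkl from -0.33 (without syngeneic library 2) to 2.17 in syngeneic against control and from -0.10 (without control library 2) to 3.70 in the step difference; the cause was not tested. The same fits gave 5 to 6, 8 to 8, 6 to 8 and 1 to 3 members called in the 4 comparisons. The replicate block gave 5, 8, 7 and 3; the numbers did not pair the libraries (deviation r -0.01 to 0.03, and 2 of 12 libraries closest to their own number), and under it Casp8 in allogeneic against control was lost (adjusted p = 0.0617). Nlrc4 had 53 counts in all control, 3 in all syngeneic and 6 in all allogeneic libraries. The level 3 counts allow was 0.0179 CPM for control and for syngeneic libraries and 0.0217 for allogeneic ones.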
